A study of Homo sapiens with 4 samples.

Results

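The genes of 10 Eph receptor tyrosine kinases, EPHA1, EPHA2, EPHA3, EPHA4, EPHA7, EPHB1, EPHB2, EPHB3, EPHB4 and EPHB6, were followed in lapatinib-resistant breast cancer cells. They were chosen by name as members of 1 receptor family and were found through the transcript identifier of each array probe. They were represented by 14 of the 41000 probes on the array and were 10 of the 16422 genes that could be named. Expression was measured in 4 samples with 1 array each. Parental SkBr3 and parental BT474 are HER2-positive human breast cancer cell lines and had received vehicle. SkBr3/Lap and BT474/Lap are lapatinib-resistant cells derived from them in rising concentrations of lapatinib, which inhibits the kinases EGFR and HER2, up to 1 µM. The study describes these clones as kept in 1 µM lapatinib for its protein blots and does not state whether the drug was present when RNA was taken. An effect of the drug in the medium and acquired resistance therefore cannot be told apart. Drug aside, all 4 samples were cultured in the same medium, and each resistant sample was 1 clone. The sample labels number the clones 3 for SkBr3 and 6 for BT474, whereas the study's text gives these numbers the other way round. The question addressed by the arrays was which genes differ between resistant cells and the cells they came from.

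Eph receptors are receptor tyrosine kinases that bind ephrins, ligands which are themselves held in the membrane of a neighbouring cell. The A class binds mainly ephrins with a lipid anchor and the B class mainly ephrins that span the membrane, and signals pass into both cells upon contact. In epithelial tissue they are known for setting cell boundaries, adhesion and migration, and in mammary epithelium EPHA2, EPHA4 and several B-class receptors have been studied in duct formation and in tumors. EPHB6 differs from the others in that its kinase domain is catalytically inactive.

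The largest differences between a clone and its parental cells were those of EPHB6, EPHB3, EPHB2 and EPHA2 in SkBr3/Lap and of EPHA4 in BT474/Lap. In SkBr3/Lap, EPHB6 was 38.6-fold lower and EPHB3 6.11-fold lower, while EPHB2 was 3.02-fold higher and EPHA2 2.90-fold higher. EPHB2 was dim, and with another background correction its log2 change was 0.82, under 2-fold. EPHB6 was dim in SkBr3/Lap, with a signal of 61.9, and with the same correction its log2 change was -3.84 in place of -5.27. In BT474/Lap, EPHA4 was 6.18-fold higher and no Eph receptor was 2-fold lower. None of the receptors differed at least 2-fold in the same direction in both clones. Of all probes with a signal of at least 100 on 1 array or more, 12.9% were 2-fold higher and 15.6% lower in SkBr3/Lap. In BT474/Lap these shares were 10.3% and 5.16%. The share past 2-fold the same way in both clones was not counted, so nothing particular to the family is read from this.

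The sequences just before the 5 receptor genes that differed by 2-fold or more in either clone are shown to place these genes in the genome and to show how they differ in CG content. They are the 250 bases before the annotated gene start in RefSeq on GRCh38.p14, written 5′ to 3′ on the strand of the gene, with the GC box GGGCGG in capitals where it occurs on either strand (CCGCCC when on the other).
EPHA2, chr1:16156070-16156319, minus strand: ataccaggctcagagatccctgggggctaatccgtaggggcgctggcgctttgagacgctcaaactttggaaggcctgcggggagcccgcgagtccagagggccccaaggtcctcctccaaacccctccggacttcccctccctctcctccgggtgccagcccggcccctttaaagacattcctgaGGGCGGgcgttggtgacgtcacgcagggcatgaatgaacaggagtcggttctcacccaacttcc
EPHA4, chr2:221574203-221574452, minus strand: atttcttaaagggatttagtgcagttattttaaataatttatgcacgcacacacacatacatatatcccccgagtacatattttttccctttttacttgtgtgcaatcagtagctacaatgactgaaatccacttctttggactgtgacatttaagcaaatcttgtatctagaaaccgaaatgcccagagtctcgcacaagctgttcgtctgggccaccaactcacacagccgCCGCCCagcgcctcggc
EPHB2, chr1:22710588-22710837, plus strand: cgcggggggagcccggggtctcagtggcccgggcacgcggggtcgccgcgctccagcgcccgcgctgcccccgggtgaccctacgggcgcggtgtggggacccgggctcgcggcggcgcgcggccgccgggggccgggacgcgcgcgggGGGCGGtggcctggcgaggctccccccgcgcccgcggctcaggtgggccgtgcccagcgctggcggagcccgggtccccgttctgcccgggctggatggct
EPHB3, chr3:184561535-184561784, plus strand: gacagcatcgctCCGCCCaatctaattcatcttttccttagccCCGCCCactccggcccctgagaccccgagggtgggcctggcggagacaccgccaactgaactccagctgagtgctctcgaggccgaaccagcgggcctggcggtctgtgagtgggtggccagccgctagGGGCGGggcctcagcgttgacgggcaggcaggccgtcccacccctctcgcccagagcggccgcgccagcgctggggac
EPHB6, chr7:142862506-142862755, plus strand: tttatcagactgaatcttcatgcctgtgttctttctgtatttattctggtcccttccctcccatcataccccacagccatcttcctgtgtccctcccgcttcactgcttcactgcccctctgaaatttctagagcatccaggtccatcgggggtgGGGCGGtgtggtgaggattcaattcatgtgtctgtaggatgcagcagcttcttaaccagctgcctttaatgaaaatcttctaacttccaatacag
All 10 receptor genes had such a sequence, and 9 held at least 1 GC box, against 42.3% of 27305 promoters of the same length. EPHA2 had 1 GC box, EPHA4 had 1, EPHB2 had 1, EPHB3 had 3 and EPHB6 had 1. The motif CAGGTG was present in 2 of the 10 on either strand, against 17.5% of all promoters, and the motif TGANTCA in 0 of the 10, against 6.60%. The kappaB consensus motif was present in 2, those of EPHA3 and EPHB1, against 9.57%. The promoters differed in the number of CG pairs, which had a median of 11 over all promoters and ranged from 3 in EPHB6 to 42 in EPHB2. EPHA2 had 15, EPHA4 had 9 and EPHB3 had 21. These matches describe the letters in the windows and not binding.

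Levels are given as a percentage of the 75th percentile of the array's own signals, the scale used to compare arrays, and a difference is given as a fold or as a log2 change on that scale. The 75th percentile was 1115 in parental SkBr3 and 2074 in its clone, 1158 in parental BT474 and 1681 in its clone, so both clones had the brighter array of their pair. Levels of different genes are not compared, since each probe has its own brightness. With 1 array per group no fold change within a cell line has a test. The estimate of error for a single probe is the spread between spots of a single array. For a difference between 2 arrays it had an SD of 0.11 on the log2 scale, and it covers neither culture nor hybridization. Probes of the same gene differed by more. Over 3566 genes with 2 or more probes above background on all arrays, the log2 changes of a gene's probes spanned a median of 0.28 in each pair. A difference beyond the spread of spots can thus lie within that between probes. Differences of less than 2 SD, 0.22, are called within the spread of spots below. The SkBr3/Lap array lay on a slide of its own and the other 3 arrays shared a slide, so that slide and resistance cannot be told apart in the SkBr3 pair. In bulk samples, fewer cells of a kind and less RNA per cell also cannot be told apart.

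Over all arrays, 66.6% to 74.0% of probes were well above background by the scanner software's own flag, and no spot was saturated. The luminal and HER2 markers ERBB2, GRB7, KRT8, KRT18, KRT19 and EPCAM were well above background on all 4 arrays. The exception among them was CDH1, at signals of 11.9 and 4.70 on the SkBr3 and SkBr3/Lap arrays, not well above background, and of 44710 and 56836 on the BT474 and BT474/Lap arrays. The median log2 change of the 7 luminal and HER2 markers was -0.82 in the SkBr3 pair and -0.63 in the BT474 pair, and 3 of 7 were past 2-fold downward in SkBr3/Lap, of which CDH1 was at background on both arrays. Their summed level was 81788% and 48803% in SkBr3 and its clone and 76286% and 51156% in BT474 and its clone. Of the leukocyte markers, PTPRC was not well above background on any array, LYZ was so in BT474/Lap alone, and CD3E had a log2 change of 1.04 in SkBr3/Lap. Of 6 mesenchymal or basal markers 4 were 2-fold or more higher in SkBr3/Lap by a measured value or a bound and FN1 was lower. In BT474/Lap 2 of these markers were 2-fold or more higher and 1 was lower. Their summed level, in which bright probes weigh most, was 691% and 441% in SkBr3 and its clone and 1692% and 627% in BT474 and its clone. The 3 endothelial markers summed to 16.2%, 67.3%, 78.1% and 39.1% in the same order, and of the 3 fibroblast markers with a probe 1 was kept, COL3A1, which was well above background in SkBr3/Lap alone. The part of these markers in the differences of the Eph receptors was not tested.

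Probes were kept when their signal reached 100 on at least 1 array, which held for 25927 probes, and a gene was represented by its brightest kept probe. Of the 10 receptors 7 were kept, EPHA1, EPHA2, EPHA4, EPHB2, EPHB3, EPHB4 and EPHB6, and each was well above background on all 4 arrays. EPHB2 was just inside this limit, with a highest signal of 132, which it reached in SkBr3/Lap, where it was high. The brightest receptor outside the limit was EPHA7, with a highest signal of 19.7 in BT474/Lap. In SkBr3/Lap, 2 of the 7 were at least 2-fold higher, against 12.9% of all kept probes, and 2 were at least 2-fold lower, against 15.6%. In BT474/Lap, 1 of the 7 was at least 2-fold higher, against 10.3% of kept probes, and 0 were at least 2-fold lower, against 5.16%. The median log2 change of the 7 was -0.13 in SkBr3/Lap, where that of all kept probes was -0.10, and 0.43 in BT474/Lap, where that of all kept probes was -0.05. The counts, of 0 to 2 among 7 genes, describe these arrays, and nothing particular to the family is read from them.

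**Figure D1:**
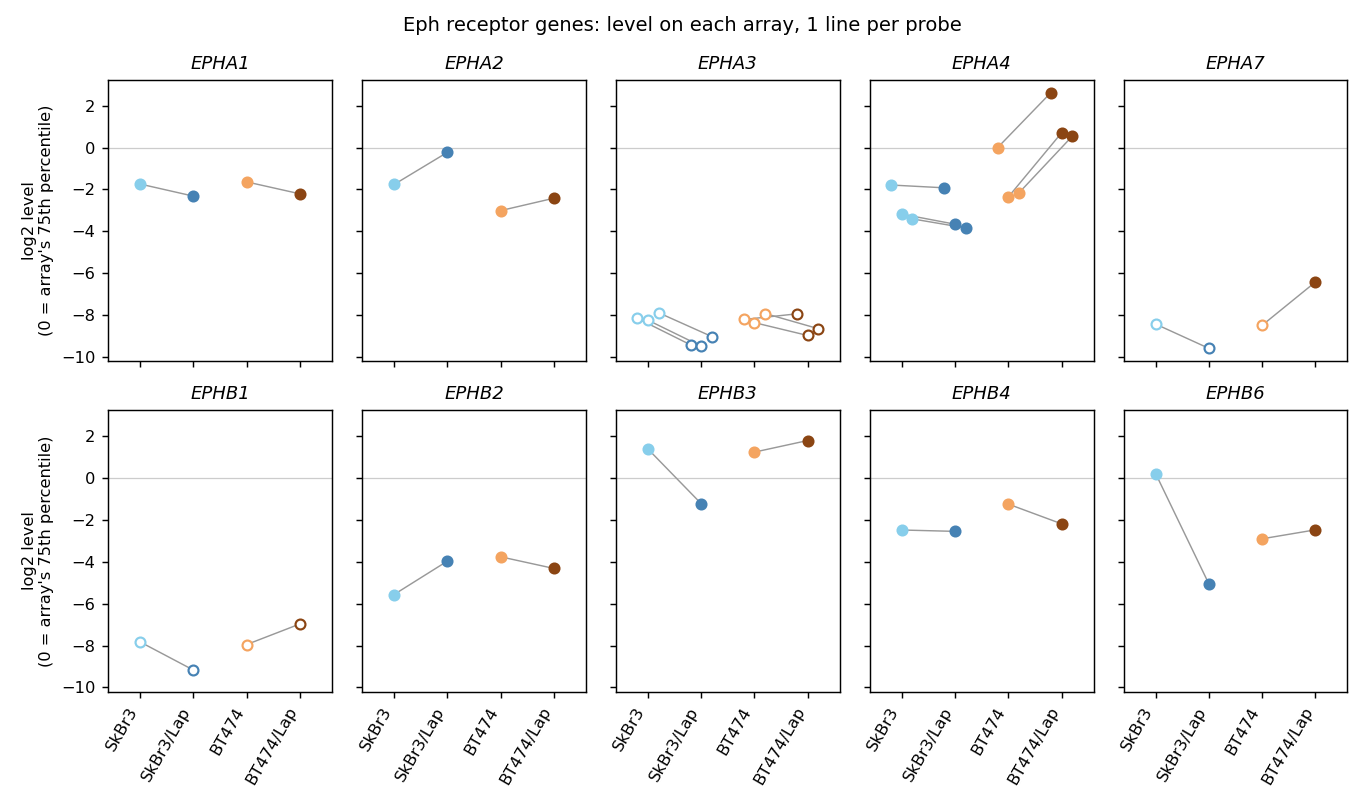
Log2 level of each Eph receptor probe relative to the 75th percentile of its array, with 1 line per probe joining parental cells (light) to the resistant clone (dark), SkBr3 in blue and BT474 in orange, filled where the probe was well above background and open where it was not. EPHB6 and EPHB3 are lower in SkBr3/Lap, all 3 probes of EPHA4 are higher in BT474/Lap, and EPHA3 and EPHB1 are open on all 4 arrays.

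Of the A-class receptors, EPHA2, which binds ephrin-A1 and is expressed in many epithelial tumors, was higher in both clones. Its level was 29.5% of the 75th percentile in parental SkBr3 and 85.3% in its clone, 12.4% in parental BT474 and 18.7% in its clone. SkBr3/Lap was thus the highest of the 4 arrays and parental BT474 the lowest, and each gap between neighbours in this order exceeded the spread of spots. The log2 change was 1.53, or 2.90-fold, in SkBr3/Lap, higher than 92.0% of kept probes, and 0.59, or 1.51-fold, in BT474/Lap, so the difference was under 2-fold in the second line. Parental SkBr3 had 2.38-fold more EPHA2 than parental BT474, and SkBr3/Lap 4.56-fold more than BT474/Lap.

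EPHA4, a receptor that binds ephrins of both classes, was measured with 3 probes. On the brightest of them its level was 28.9% in parental SkBr3 and 26.4% in its clone, 100.1% in parental BT474 and 618% in its clone, corresponding to signals of 323, 547, 1159 and 10394. The levels in SkBr3 and SkBr3/Lap were within the spread of spots, and BT474/Lap stood above parental BT474 by a log2 change of 2.63, or 6.18-fold, higher than 98.0% of kept probes. The second probe gave 11.0%, 7.90%, 19.5% and 163% in the same order of arrays, and an 8.36-fold difference in BT474/Lap. The third gave 9.43%, 6.99%, 22.4% and 146%, and a 6.52-fold difference. All 3 probes were therefore at least 6.18-fold higher in BT474/Lap, and their log2 changes in SkBr3/Lap were -0.13, -0.48 and -0.43. In the parental cells, EPHA4 was lower in SkBr3 than in BT474 by log2 values of -1.79, -0.82 and -1.25 on the same probes.

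EPHA1, the receptor first described in this family, had nearly equal log2 changes in both clones, of -0.58 in the SkBr3 pair and -0.57 in the BT474 pair. Its level was 29.9% and 20.0% in SkBr3 and its clone and 32.1% and 21.6% in BT474 and its clone. The parental cells were within the spread of spots of each other, as were the clones, and both clones lay below both parental lines by less than 2-fold. Before scaling, the EPHA1 signals were 333 in SkBr3 and 415 in SkBr3/Lap, so the unscaled signal was higher in the clone and the scaled level lower. The direction on the scaled level was the same under all 10 alternative settings, some of which leave the value of a kept gene as it is.

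EPHA3 and EPHA7, receptors of the A class known mainly from the nervous system, were at or near background. All 3 probes of EPHA3 had signals between 2.89 and 6.84, not well above background on any array, and no fold is given. EPHA7 had signals of 3.23 in parental SkBr3 and 2.69 in its clone, 3.23 in parental BT474 and 19.7 in its clone and was well above background in BT474/Lap only. With the lowest signal well above background on each array taken as the floor, the scaled floor of the parental BT474 array was above the level of EPHA7 in BT474/Lap, and no fold is given for that pair. Against SkBr3/Lap it was at least 1.82-fold higher in BT474/Lap.

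Of the B-class receptors, EPHB6 had the largest difference in the family. Its level was 115% and 2.99% in SkBr3 and its clone and 13.4% and 18.0% in BT474 and its clone, corresponding to signals of 1284, 61.9, 155 and 302. Parental SkBr3 had the highest level and SkBr3/Lap the lowest, with both BT474 arrays between them, and no neighbours in this order were within the spread of spots. The log2 change was -5.27 in SkBr3/Lap, and only 0.719% of kept probes had a lower value. In BT474/Lap it was 0.43, or 1.35-fold. The parental lines also differed in EPHB6, with 8.61-fold more in SkBr3, whereas SkBr3/Lap had 6.03-fold less than BT474/Lap, so that the order of the cell lines was turned between parental cells and clones.

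EPHB3, a receptor for ephrin-B ligands that takes part in the positioning of epithelial cells, had levels of 261% in parental SkBr3 and 42.7% in its clone, 236% in parental BT474 and 346% in its clone. The parental lines were within the spread of spots, SkBr3/Lap was the lowest array and BT474/Lap the highest. The log2 change was -2.61, or 6.11-fold lower, in SkBr3/Lap, where 3.11% of kept probes had a lower value, and 0.55, or 1.47-fold higher, in BT474/Lap. Between the clones the difference was 8.10-fold.

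EPHB2, a receptor for ephrin-B ligands that shares this role, was dim on all arrays. Its level was 2.11% and 6.38% in SkBr3 and its clone and 7.37% and 5.01% in BT474 and its clone, corresponding to signals of 23.6, 132, 85.4 and 84.2. SkBr3/Lap and parental BT474 were within the spread of spots, and parental SkBr3 was the lowest. The log2 change was 1.59, or 3.02-fold higher, in SkBr3/Lap and -0.56 in BT474/Lap. Spots of a probe with signals between 10 and 100 had a median SD of 0.20 to 0.25 on the log2 scale, larger than for brighter probes, and with another background correction the log2 change in SkBr3/Lap was 0.82, under 2-fold.

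EPHB4, the receptor for ephrin-B2, had levels of 17.9% in parental SkBr3 and 17.1% in its clone, 42.1% in parental BT474 and 21.9% in its clone. Both SkBr3 arrays were within the spread of spots, and parental BT474 was the highest. BT474/Lap was lower than its parental cells by a log2 change of -0.94, or 1.92-fold, just under the 2-fold limit, which it passed with 2 of the 10 alternative settings. EPHB1 had signals of 4.89 and 3.59 in SkBr3 and its clone and 4.68 and 13.4 in BT474 and its clone, not well above background on any array.

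**Figure D2:**
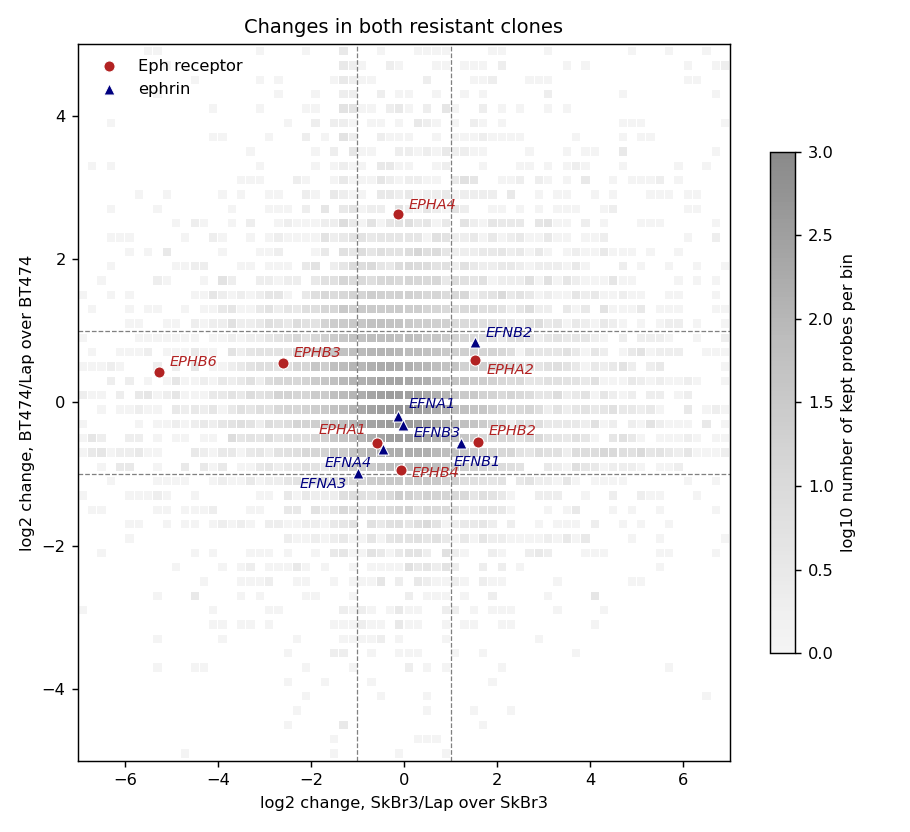
Log2 change in SkBr3/Lap (horizontal) and in BT474/Lap (vertical) of the 7 kept Eph receptors (red circles) and 6 kept ephrins (blue triangles), each by its brightest probe, over all kept probes counted in bins of 0.2 (grey, log10 scale; probes beyond the axes are not drawn), with broken lines at 2-fold. EPHB6 and EPHB3 lie to the left, EPHA4 lies at the top, and no receptor lies past 2-fold on both axes. The share of all kept probes past 2-fold on both axes was not counted.

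Across both cell lines, a change shared by the clones was tested with limma, with cell line as a block and 1 residual degree of freedom. None of the 9 kept Eph receptor probes had an adjusted p below 0.05, and 0 had an unadjusted p below 0.05. Of all 25927 kept probes 0 passed the adjusted threshold, or 0%, and 900, or 3.47%, the unadjusted one. The lowest p of a receptor was 0.104 for EPHA2, with a mean log2 change of 1.06, higher in 2 of 2 clones, and an adjusted p of 1.00 in limma. This test measures only what the lines share and does not show that the receptors are alike in clones and parental cells. EPHA4, EPHB2, EPHB3 and EPHB6 had changes of opposite sign in the clones, and the share of all kept probes with opposite signs was not counted.

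The parental lines themselves differed in several receptors. Parental SkBr3 had at least 2-fold more than parental BT474 of 2 of the 7 receptors, EPHA2 and EPHB6, against 19.5% of kept probes, and at least 2-fold less of 3, EPHA4, EPHB2 and EPHB4, against 19.5%. EPHB2 was 3.48-fold lower and EPHB4 2.36-fold lower in SkBr3. EPHA1 and EPHB3 were within the spread of spots between the parental lines. EPHB3 was thus nearly equal in parental cells and 8.10-fold apart in the clones, while EPHB4 was 2.36-fold apart in parental cells and differed by a log2 value of -0.36 between the clones.

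The likeness of other genes to the 2 receptors with the widest range over the 4 arrays, EPHB6 and EPHA4, was measured by the largest difference on any array after each probe was centered on its own mean. Among 16397 other named probes with a signal above background on every array, the 3 closest to EPHB6 were PCDHB2, a protocadherin, at 0.27 on the log2 scale, SAMD11 at 0.43 and NRP1, a coreceptor for semaphorins, at 0.44, and 4 probes were within 0.5. For EPHA4 the closest of 16395 were SSPN, which encodes sarcospan, at 0.13, SLC47A1, an exporter of organic cations, at 0.27 and HLA-DRB1, a class II antigen-presenting protein, at 0.28, and 9 probes were within 0.5. These patterns rest on 4 arrays and describe them only.

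Among the ligands, EFNB1 and EFNB2 were higher in SkBr3/Lap. Of the 8 ephrin genes 6 were kept, all well above background on all arrays. In SkBr3/Lap 2 of these were at least 2-fold higher, against 12.9% of kept probes, and 0 were at least 2-fold lower, against 15.6%, with a median log2 change of -0.08. In BT474/Lap 0 were past 2-fold in either direction, against 10.3% of kept probes upward and 5.16% downward, with a median log2 change of -0.44. In limma 0 of the 9 kept ephrin probes had an adjusted p below 0.05 and 0 an unadjusted p below 0.05, against 3.47% of all kept probes for the latter.

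EFNB2, the ligand of EPHB4 and of other B-class receptors, had levels of 53.4% in parental SkBr3 and 153% in its clone, 223% in parental BT474 and 400% in its clone. It was higher in each clone than in its parental cells, and SkBr3/Lap stayed below parental BT474. The log2 change was 1.52, or 2.86-fold, in SkBr3/Lap and 0.84, or 1.79-fold, in BT474/Lap. A second probe, not well above background in parental SkBr3 and at 5.36% in its clone, 9.74% in parental BT474 and 14.0% in its clone, was at least 3.21-fold higher in SkBr3/Lap, with a log2 change of 0.53 in BT474/Lap.

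EFNB1, another ligand that spans the membrane, had levels of 58.1% and 136% in SkBr3 and its clone and 87.4% and 59.3% in BT474 and its clone. SkBr3/Lap was the highest array, and parental SkBr3 and BT474/Lap were within the spread of spots. The log2 changes were 1.23, or 2.35-fold higher, in SkBr3/Lap and -0.56 in BT474/Lap. EFNB3 had levels of 21.2%, 20.8%, 22.3% and 17.9% on its brightest probe in the same order, and each gap between neighbours was within the spread of spots. Between BT474 and BT474/Lap, the highest and lowest, EFNB3 differed by a log2 value of 0.31 on this probe, beyond that spread. Its second probe had 3.65%, 3.48%, 10.6% and 20.4% in the same order, so the probes disagreed in the sign of the change in BT474/Lap, with log2 changes of -0.31 and 0.95.

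Of the ligands with a lipid anchor, EFNA1, the main ligand of EPHA2, was bright and nearly level, at 3888% in parental SkBr3 and 3537% in its clone, 3192% in parental BT474 and 2806% in its clone, with log2 changes of -0.14 and -0.19. EFNA3 was nearly 2-fold lower in both clones, at 17.0% and 8.58% in SkBr3 and its clone and 17.3% and 8.73% in BT474 and its clone. Its log2 change was -0.99 in each clone, and the parental lines, like the clones, were within the spread of spots of each other. EFNA4, the neighbour of EFNA3 on chromosome 1, had levels of 247%, 181%, 345% and 219% in the same order of arrays, with log2 changes of -0.45 and -0.66. EFNA2 and EFNA5 did not reach a signal of 100 on any array, and EFNA5 was well above background in BT474/Lap only.

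**Figure D3:**
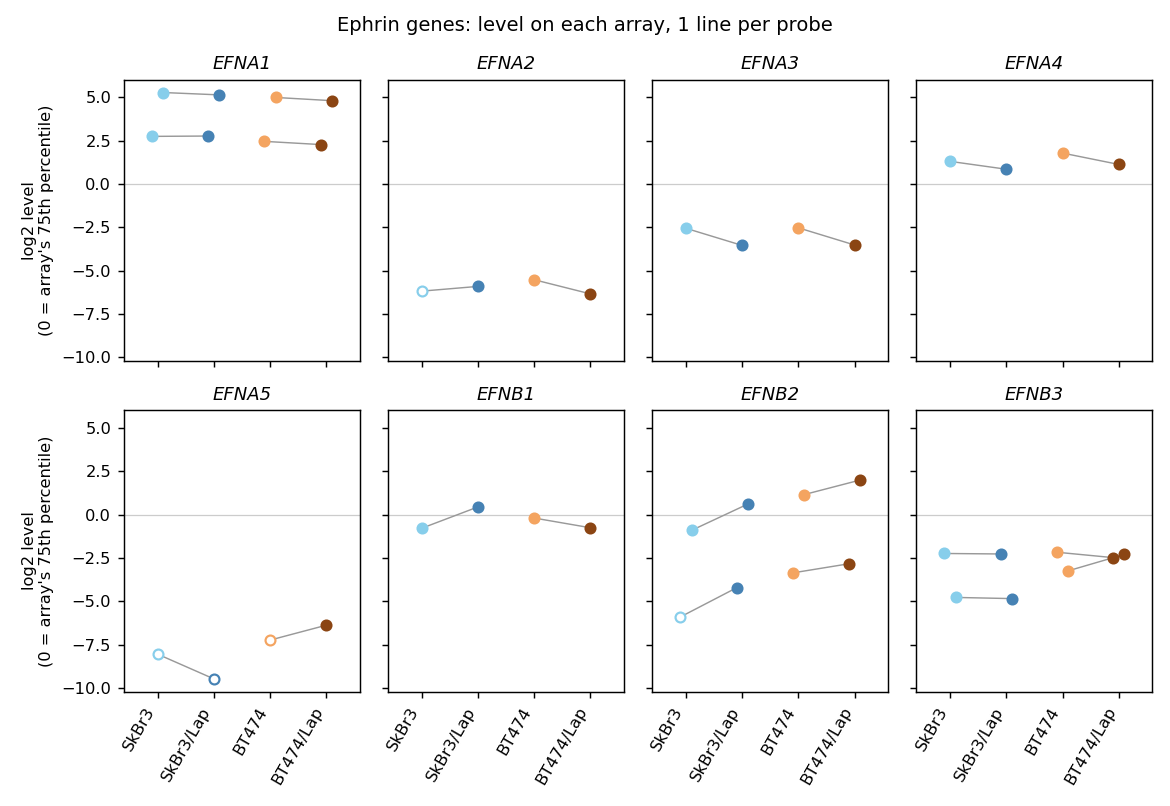
Log2 level of each ephrin probe relative to the 75th percentile of its array, with 1 line per probe joining parental cells (light) to the resistant clone (dark), SkBr3 in blue and BT474 in orange, filled where well above background and open where not. EFNB1 and EFNB2 are higher in SkBr3/Lap than in SkBr3, EFNA3 is lower in both clones by nearly the same amount, and EFNA1 is nearly level.

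Of genes that act downstream of Eph receptors or shape their traffic, 40 were listed, among them adaptors, Src family kinases and a protease that cleaves ephrins. A probe was found for 37, and 33 were kept. In SkBr3/Lap 3 of the 33 were past 2-fold upward and 3 past it downward, 1 of these at background on both arrays, beside 12.9% and 15.6% of kept probes, with a median log2 change of -0.08. In BT474/Lap 2 were past 2-fold upward and 1 downward, beside 10.3% and 5.16% of kept probes, with a median of -0.19. The only one of them well above background on all arrays that passed 2-fold upward in both clones was FYN, a Src family kinase that binds activated Eph receptors, and none was at least 2-fold lower in both. Its signals were 106 in parental SkBr3 and 2496 in its clone, 187 in parental BT474 and 939 in its clone. Both clones thus lay above both parental lines, with log2 changes of 3.66 and 1.79.

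The other receptor tyrosine kinases gave a comparison for the family. Of 40 listed genes 39 had a probe and 23 were kept, of which 7 were past 2-fold upward and 6 past 2-fold downward in SkBr3/Lap, 3 of the latter at background on both arrays, beside 12.9% and 15.6% of kept probes and with a median log2 change of 0.06. In BT474/Lap 5 were past 2-fold upward and 2 downward, beside 10.3% and 5.16% of kept probes. Of the Eph receptors, 4 of 7 were past 2-fold in either direction in SkBr3/Lap and 1 of 7 in BT474/Lap, beside 13 of 23 and 7 of 23 of the other receptor kinases, with 3 of the 13 at background. With 1 array per group the families were not compared by a test, and no difference between them is read from these counts. ERBB2, the gene of HER2, had a log2 change of -1.90 in the SkBr3 pair and -0.65 in the BT474 pair.

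The differences past 2-fold were the same in direction under each of 10 other ways of scaling, filtering and correcting the signals. Several of these could not have changed them. Other filters leave the value of a kept gene as it is, as does the mean over probes for a gene with 1 probe. The deposited table gives nearly the same differences for most probes, and another percentile shifts all genes of a pair alike. The log2 change of EPHB6 in SkBr3/Lap ranged from -5.28 to -3.84 and that of EPHB3 from -2.62 to -2.36. EPHA2 in SkBr3/Lap ranged from 1.49 to 1.79 and EPHA4 in BT474/Lap from 2.42 to 2.91. Changes near 0 were less certain in direction, as EPHA4 in SkBr3/Lap ranged from -0.35 to 0.12 and EPHB4 in SkBr3/Lap from -0.10 to 0.19. When the percentile was taken over probes well above background only, every log2 change was raised by 0.25 in the SkBr3 pair and 0.28 in the BT474 pair, and the share of higher among all changed probes went from 45.3% to 61.2% for the SkBr3 clone and from 66.6% to 83.5% for the BT474 clone. With scaling to the median these shares were 55.3% and 48.1%.

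**Figure D4:**
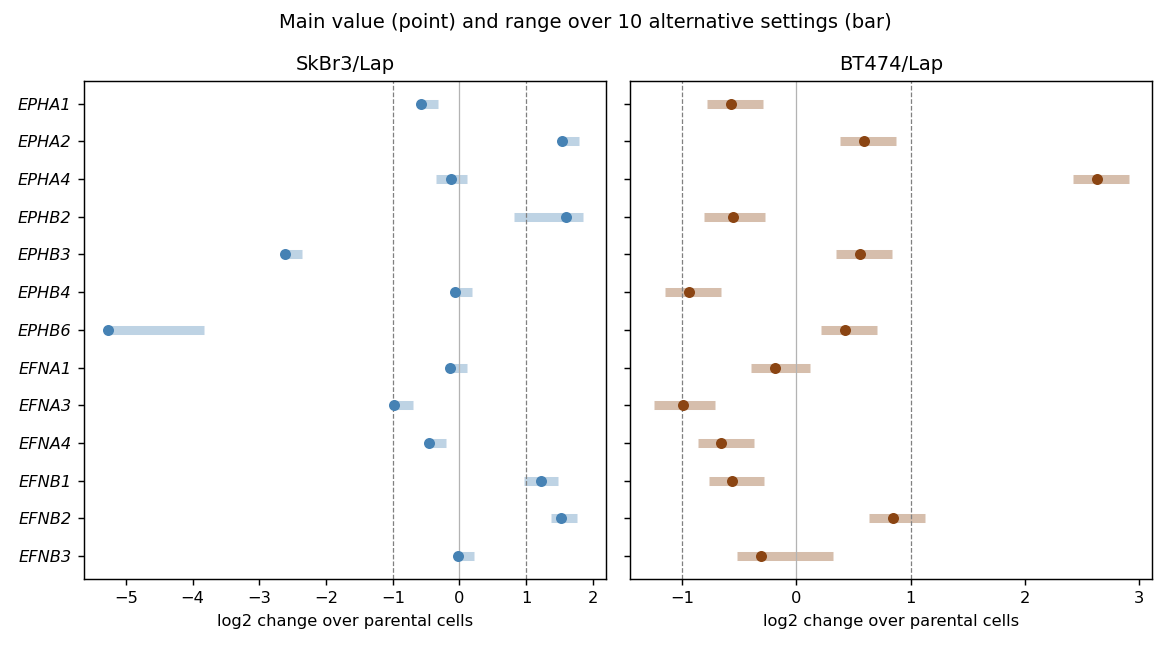
Log2 change of each kept Eph receptor and ephrin in SkBr3/Lap (left) and BT474/Lap (right), with the reported value as a point, the range over 10 alternative settings as a bar, and broken lines at 2-fold. The bars of EPHA2, EPHB3 and EPHB6 in SkBr3/Lap and of EPHA4 in BT474/Lap stay past 2-fold, and that of EPHB2 in SkBr3/Lap crosses it.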

How the data were processed

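Gene expression was measured with 1-color Agilent 4 × 44 K arrays, Cy3 channel, with 1 array for each of the 4 samples. For each spot the authors deposited a processed signal, an intensity after background subtraction by Feature Extraction 10.1.1.1, and quality flags. A second deposited table held a log2 value for each probe, with column medians of 0.12 and -0.20 for SkBr3 and its clone and 0.11 and -0.05 for BT474 and its clone. Its differences between arrays ran in the same direction as the processed signals and deviated by at most 0.62, but how its probes were centered is unknown. It served as an alternative.

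For each probe the mean log2 processed signal over its spots was taken, minus the 75th percentile of that array (41000 probes, controls left out). Probes with a signal of at least 100 on at least 1 array were kept. A probe was well above background when at least 50% of its spots were flagged so. Where 1 signal of a pair was not, the higher of it and the lowest signal flagged so on that array was used, and the fold is written as at least. Names were matched from transcript accessions to RefSeq (GRCh38.p14), which named 23680 probes. Changes of 2-fold or more were counted. Precision is limited by the number of arrays, and nothing shows the spread between cultures. The test was limma 3.58.1 in R 4.3.3, with Benjamini-Hochberg adjustment over all kept probes, and was tested on simulated data. Python 3.11.15 was used otherwise. Alternatives were another scaling, quantile normalization, normexp with an offset of 50, the deposited table, 16 added to the signal, other filters, outlier spots left out, the mean over probes and a 3-fold threshold. All Eph receptors and ephrins with a probe are named. Of the signalling genes and other receptor kinases, those well above background on all arrays and past 2-fold the same way in both clones are named. One of the leukocyte markers is not reported here. The receptors and lists were chosen with earlier results of these data known.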

Additional observations from a re-analysis of the deposited data

Results flagged for a closer look

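In 5 of the kept receptor and ephrin genes the changes in the clones had opposite signs, each with at least 1 clone past 2-fold. The share of all kept probes that meet this rule was not counted, so the number is not read as a trait of the family. The values are the log2 change in SkBr3/Lap minus that in BT474/Lap, and with 1 array per group none of these differences was tested. The difference was -5.70 for EPHB6, which was 38.6-fold lower in the SkBr3 clone and 1.35-fold higher in that of BT474. It was -3.17 for EPHB3, with log2 changes of -2.61 and 0.55. For EPHA4 it was -2.76, and here the sign in SkBr3/Lap, where the log2 change was -0.13, was kept in 8 of 10 alternative settings. It was 2.15 for EPHB2, which was dim, and 1.79 for the ligand EFNB1, which had log2 changes of 1.23 and -0.56. The SkBr3/Lap array lay on a slide of its own, and its part in these differences cannot be told apart from that of the clone.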

How the results depend on the processing

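Within a cell line no test was possible because each group had 1 array, and so 1 replicate number. The block for cell line in limma pairs each clone with its own parental cells. Of the 260 single-gene values under the alternatives, 0 of those past 2-fold changed sign and 171 moved by less than 1 SD of the difference between spots, 0.11. The 171 include values that their setting could not move, such as those of kept genes under other filters. The count therefore does not measure stability. Of 90 counts under the alternatives 78 stayed within 1.5 times the reported count. Among Eph receptors, 2 were higher in BT474/Lap with no filter on dim probes, EPHA7 being added, and 5 were lower in SkBr3/Lap, the added EPHA3, EPHA7 and EPHB1 being at background there. In SkBr3/Lap 1 was higher at 3-fold, EPHB2 remaining at 3.02-fold, and 1 with normexp, EPHA2 remaining. In BT474/Lap 1 was lower with median scaling and 1 with quantile normalization, EPHB4 in both. Among ephrins, 1 was higher in BT474/Lap with the percentile over probes well above background, EFNB2 at 1.12, and 1, EFNA3, was lower there with median scaling and 1 with quantile normalization. In SkBr3/Lap 0 ephrins were higher at 3-fold, 1 with normexp, where EFNB1 was at 0.97, and 1 was lower with no filter, EFNA5, at background. The median log2 change of the receptors in BT474/Lap was 0.71 with the percentile over probes well above background, 0.22 with median scaling, 0.23 with normexp and 0.25 with quantile normalization. In SkBr3/Lap it was 0.12 with the percentile over probes well above background, 0.024 with median scaling, -0.35 with the mean over probes and -0.86 with no filter. Without the block for cell line limma gave 0 adjusted calls and 0 receptor probes at an unadjusted p below 0.05, against 1.19% of all kept probes. With the slide as a block instead, the SkBr3/Lap array, alone on its slide, was fitted exactly and did not enter the comparison. That fit set BT474/Lap alone against the parental arrays and measured no change shared by the clones, so its calls are not given. Slide and cell line together left no residual degree of freedom. The cause of these shifts was not tested. Receptors below background have no measured change.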

Other observations

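Of 4 Eph receptors beside the 10 described, EPHA8 was measured with 2 probes and was higher in BT474/Lap. The first had signals of 19.0 and 12.7 in SkBr3 and its clone and 65.3 and 452 in BT474 and its clone, and was not well above background in SkBr3/Lap. It was 4.77-fold higher in BT474/Lap than in BT474 and at least 2.66-fold lower in SkBr3/Lap than in SkBr3. The second probe was at background on both SkBr3 arrays and was 4.07-fold higher in BT474/Lap. EPHA8 and EPHA4 were thus the receptors with a measured difference past 2-fold in BT474/Lap. EPHA10 had signals of 22.3, 18.3, 28.5 and 23.7 in the same order and EPHA5 was not well above background on any array. No probe was matched to EPHA6.

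Among the other receptor tyrosine kinases, INSR, the insulin receptor, was higher in each clone than in its parental cells by 2-fold or more. Its signals were 44.2 in parental SkBr3 and 242 in its clone, 142 in parental BT474 and 577 in its clone, with log2 changes of 1.56 and 1.49. It was the only one of the 17 well above background on all arrays with a difference past 2-fold in the same direction in both.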
